A study of Homo sapiens with 6 samples.

Results

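Collagens are triple helices of 3 chains in which a glycine opens each group of 3 residues, and they form the fibres, nets and microfilaments of the extracellular matrix. Here the collagen genes are the protein-coding genes with a symbol of the form COL, number, A, number, which gave 44 of the 20263 genes in the count table. By class, 11 are fibrillar, 6 belong to the type IV collagens of basement membrane, 5 to type VI, 10 to the FACITs (collagens that sit on fibrils through interrupted helices) and 12 to other classes. Poly(A) RNA of U118, an established human malignant glioma line whose cells the labels call astroblastoma cells, was sequenced at day 2. In 4 libraries the cells had received RIPK2 siRNA (siRIPK2_1 to siRIPK2_4), in 1 the control siRNA (siNC), and 1 is of WT cells. The labels do not say whether the WT cells were mock treated, so comparisons with WT cannot separate the siRNA from the transfection. RIPK2 is a kinase that relays signals of the NOD receptors to NF-kB. All 6 libraries come from this 1 line. Whether the siRIPK2 libraries stand for several siRNAs, several cultures or repeats of 1 transfection is not stated in the labels. Their spread may thus be technical, and the p-values rest largely on it. The p-values against both controls also take in the difference between siNC and WT. In every fit the spread of a gene is set partly from genes of like level.

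Type I collagen, 2 alpha 1 chains with 1 alpha 2 chain, is the main tensile fibre of connective tissue, and normal brain parenchyma holds little of it outside vessels and meninges. Type IV collagen makes the sheet of the basement membrane around vessels, and type VI makes beaded microfilaments beside cells. In culture, lines of glioma origin can express interstitial collagens, and the chains are hydroxylated and folded in the endoplasmic reticulum, secreted, trimmed and crosslinked before they work.

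The repeat behind every collagen can be read in the coding sequence, where a GGN glycine codon recurs every 9 bases. A stretch of 6 repeats from a fibrillar gene, a type IV gene and a FACIT is shown, and the length of the runs is given by class below it. Capitals mark the glycine codons, and the sequences come from GENCODE release 29 on GRCh38, read on the strand of the gene. They lie in exon 8 of COL1A1 (chr17:50197949-50198002, minus strand), exon 3 of COL4A1 (chr13:110213962-110214015, minus strand) and exon 57 of COL12A1 (chr6:75101999-75102052, minus strand).
COL1A1: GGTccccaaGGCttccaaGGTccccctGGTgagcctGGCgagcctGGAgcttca
COL4A1: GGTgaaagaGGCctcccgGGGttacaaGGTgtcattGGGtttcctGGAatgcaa
COL12A1: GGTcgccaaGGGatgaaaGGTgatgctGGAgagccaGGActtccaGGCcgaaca
In the fibrillar genes the longest unbroken run held 216 to 343 repeats, with 338 in COL1A1. In the type IV genes it held 38 to 66, and the helix was split into 22 to 27 runs. The longest run was 37 to 87 repeats in type VI and 32 to 113 in the FACITs. Exons of exactly 54 bases, the unit of the fibrillar genes, numbered 21 to 33 per fibrillar gene and 1 to 3 per type IV gene. They numbered 2 to 3 per type VI gene and 4 to 28 per FACIT. The 28 of COL22A1, a FACIT, lie inside the fibrillar range, so such exons are not particular to the fibrillar genes.

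The 6 type IV genes form 3 head-to-head pairs, so that each pair starts from a common stretch of DNA. Between the RefSeq start sites, 126 bases separate COL4A1 from COL4A2, 418 separate COL4A4 from COL4A3 and 379 separate COL4A6 from COL4A5. The stretch between COL4A1 and COL4A2 (GRCh38.p14, chr13:110307158-110307283, plus strand) is shown because the levels of that pair are compared below. Capitals mark its single CCAAT and its single GGGCGG.
COL4A1 and COL4A2: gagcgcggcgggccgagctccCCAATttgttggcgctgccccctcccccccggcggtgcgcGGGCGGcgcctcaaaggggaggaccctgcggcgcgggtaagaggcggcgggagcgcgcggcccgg
Both strands were searched, the motifs do not overlap each other, and no TATAAA was found in this window. In the same length upstream of 27305 RefSeq starts, 21.9% of windows held CCAAT, 34.6% held GGGCGG and 6.2% held TATAAA. The stretch has a GC content of 80.2%.

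The libraries held 33540619 to 45309423 counts. RIPK2, the targeted gene, was at 3.86, 11.9, 6.27 and 4.32 CPM (counts scaled to library size with TMM factors) in siRIPK2_1 to siRIPK2_4, against 43.4 in siNC and 56.8 in WT. Of the 10 astrocyte and glioma markers checked, 4 reached a mean of 1 CPM. AQP4 was at 0 counts in every library, S100B had 2 counts in siRIPK2_2 and 0 elsewhere, and GFAP lay at 0.532 to 0.778 CPM in siRIPK2 libraries, 1.09 in siNC and 0.999 in WT. ALDH1L1, SLC1A2 and OLIG2 had at most 6 counts. The 4 that reached 1 CPM were VIM, at 3813 to 7190 CPM in siRIPK2 libraries, 7572 in siNC and 6477 in WT, NES, at 19.5 to 73.1, 18.5 and 69.1 CPM in the same order, SLC1A3, at 3.52 to 13.1, 11.2 and 6.33, and SOX2, at 0.908 to 14, 0.748 and 2.58. The astrocyte and glioma list was thus part present and part at or near 0. All 10 mesenchymal and mural markers reached a mean of 1 CPM, with summed levels of 2123 to 3082 CPM in siRIPK2 libraries, 2733 in siNC and 2258 in WT. THY1 and CSPG4 accounted for most of these sums. THY1 was at 665 to 1250, 979 and 746 CPM in the same order, and CSPG4 at 983 to 1236, 1301 and 943. Others were far lower: ACTA2 was at 2.6 to 14.7 CPM over the 6 libraries and TAGLN at 5.1 to 9.7. RGS5 was at 2.11 to 2.89 CPM in siRIPK2 libraries, 0.935 in siNC and 1.83 in WT. The summed endothelial markers stayed at 1.93 to 7.54 CPM in siRIPK2 libraries, 6.98 in siNC and 4.33 in WT, and TEK was at 0 counts throughout. Among the 6 macrophage markers AIF1 was at 0 counts and PTPRC had at most 4, while CD68 accounted for most of sums of 107.9 to 149.2 CPM in siRIPK2 libraries, 95.2 in siNC and 167 in WT. Not all of these markers were near 0: CDH5 reached 4.19 CPM in siRIPK2_1 and 3.49 in siNC, PECAM1 2.75 in siRIPK2_2, and CSF1R was at 1.18 to 3.69 CPM in siRIPK2 libraries, 3.49 in siNC and 1.97 in WT. The 4 epithelial markers summed to 3.93 to 7.36 CPM in siRIPK2 libraries, 5.17 in siNC and 5.13 in WT. The part of these markers in the results was not tested. In bulk RNA, fewer cells that express a gene and less of its RNA per cell cannot be told apart.

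U118 cells expressed a narrow set of collagens at high level, led by type I and type VI. Of the 44 genes, 28 had a mean of at least 1 CPM, and 10 of these were above 100 CPM. The remaining 16 never exceeded 76 counts in a library, and COL9A1, a chain of a cartilage FACIT, had no count in any. Collagen genes together took 0.811% to 0.993% of all counts in siRIPK2 libraries, 1.19% in siNC and 0.943% in WT. The 95% exact binomial interval of the siNC share was 1.191% to 1.198%, which covers counting error only.

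Levels can be compared between genes only per length, for which CPM was divided by the length in kilobases of 1 principal transcript per gene (RPKM). On that scale COL1A2 ranked first in every library, with a mean of 554 RPKM over the 6, followed by COL6A2 (335), COL1A1 (305), COL6A1 (264) and COL6A3 (70.6). These 5 genes made up 82.3% to 87.7% of the summed collagen RPKM in siRIPK2 libraries, 91.8% in siNC and 88.2% in WT. COL1A1 and COL1A2 alone held 42.9% to 55.1% in siRIPK2 libraries, 51.4% in siNC and 47.0% in WT. COL6A2, COL1A1 and COL6A1 changed places with one another among ranks 2 to 4, so their order is not fixed across the libraries.

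**Figure D1:**
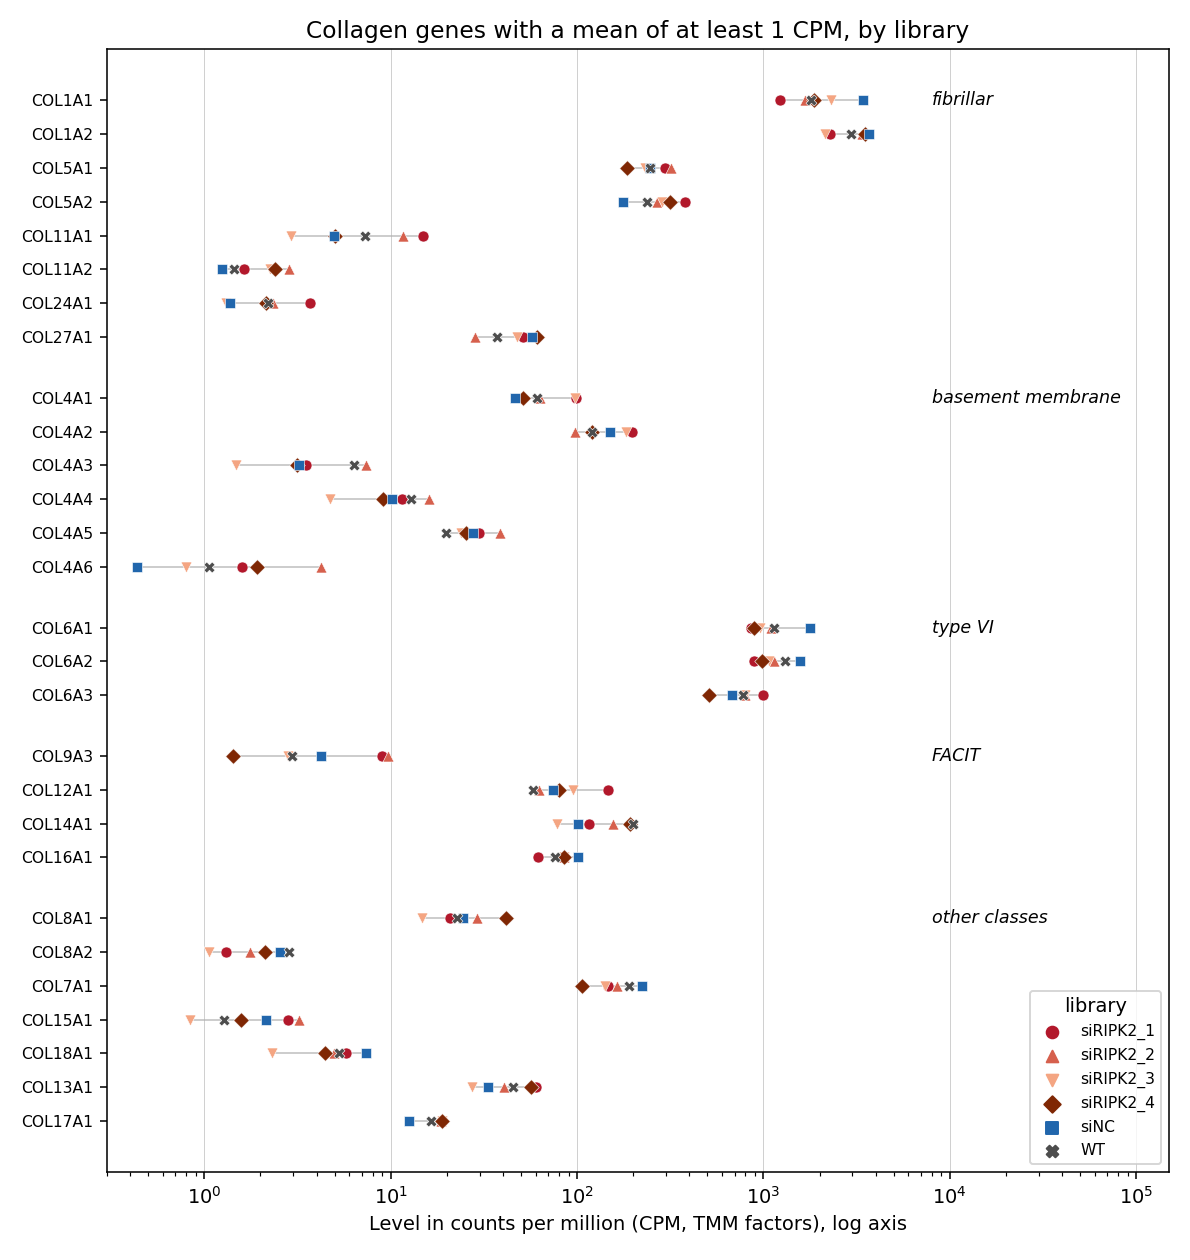
Level of each of the 28 collagen genes with a mean of at least 1 CPM in the 6 libraries, grouped by class, on a log axis in CPM; each point is 1 library and grey lines join the lowest and the highest. COL1A1, COL1A2 and the 3 type VI genes stand apart at the right, and the siNC square is the rightmost point for COL1A1, COL1A2, COL6A1 and COL6A2.

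Summed by class, the fibrillar genes held 710, 960, 819 and 1008 RPKM in siRIPK2_1 to siRIPK2_4, against 1261 in siNC and 890 in WT. The WT library lay inside the range of the siRIPK2 libraries, and siNC lay above all others. Type VI sums were 553, 660, 609 and 541 RPKM in siRIPK2_1 to siRIPK2_4, against 938 in siNC and 717 in WT, so here both controls were above all 4 siRIPK2 libraries. The type IV sum was 31.7 to 51.8 RPKM in siRIPK2 libraries, 35.9 in siNC and 33.0 in WT. The FACIT sum was 36.5 to 52.3 RPKM in siRIPK2 libraries, 41.5 in siNC and 50.8 in WT. For both of these classes the controls lay within the siRIPK2 range.

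**Figure D2:**
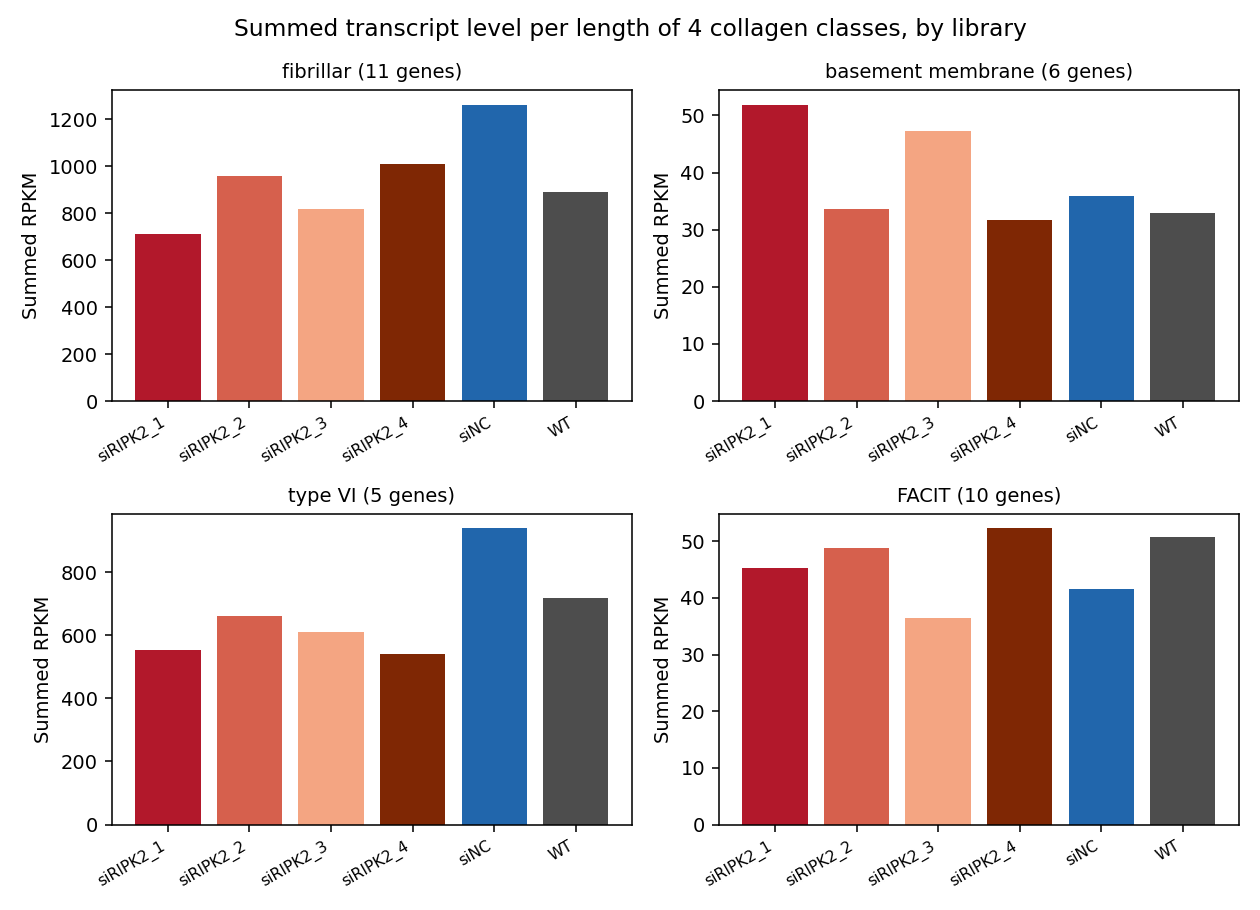
Summed RPKM of the fibrillar, basement membrane (type IV), type VI and FACIT genes in each library; each bar is 1 library and every axis starts at 0. The type VI bars of siNC (938 RPKM) and WT (717 RPKM) are both taller than the 4 siRIPK2 bars (541 to 660 RPKM), and for the fibrillar genes only siNC is.

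The siRIPK2 libraries were first set against both controls together. The collagens had no common direction: type VI chains COL6A1 and COL6A2 and the anchoring fibril chain COL7A1 were lower in siRIPK2 cells, the fibrillar chain COL5A2 was higher, and none passed the test after adjustment. In edgeR's quasi-likelihood test with Benjamini-Hochberg adjustment over 13901 genes, 0 genes had an adjusted p under 0.05 (0.0%), and the lowest for a collagen was 0.9998. Before adjustment 1.32% of genes were higher and 1.23% lower with a p under 0.05, 355 in all, as were 4 of the 33 collagens that passed the filter on low counts, 1 higher and 3 lower. These counts rest on single libraries: without siNC they are 152 genes and 0 collagens, without siRIPK2_4 335 and 2, without WT 676 and 4, and without siRIPK2_2 561 and 4. All 4 siRIPK2 libraries lay above both controls for 4 of the 33 (COL5A2, COL11A2, COL9A2 and COL17A1), against 4.95% of genes. They lay below both for another 4 (COL6A1, COL6A2, COL7A1 and COL8A2), against 5.45% of genes. The median log2 fold change was 0.11 over these collagens and 0.01 over all genes tested.

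By class, the median log2 fold change against both controls was 0.24 over 10 fibrillar genes, 0.23 over 6 type IV genes, -0.50 over 3 type VI genes, 0.23 over 6 FACITs and 0.14 over 8 others. With 1 library left out, the fibrillar median ran from 0.03 without siRIPK2_1 to 0.42 without WT, and the type IV median from 0.13 without siRIPK2_1 to 0.34 without siNC. The type VI median stayed negative, from -0.63 without WT to -0.25 without siNC. The FACIT median ran from 0.06 without siRIPK2_2 to 0.40 without siRIPK2_3, and that of the others from -0.11 without siNC to 0.31 without siRIPK2_3. Only the type IV and type VI medians were thus on 1 side of 0 by more than 0.1 whichever library was left out. Without the filter the medians are 0.41 for fibrillar genes, 0.54 for FACITs and 0.08 for type VI, where COL6A5 and COL6A6, with at most 2 counts, then enter. Without siRIPK2_1 the median of all 33 collagens is -0.02.

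Against siNC, COL1A1, COL6A1 and COL6A2 were lower in siRIPK2 cells and COL5A2 was higher, each at an unadjusted p under 0.05 only. In the edgeR fit with 3 groups, which assumes that each lone control varies as the siRIPK2 libraries do, 0 of 14306 genes passed after adjustment (0.0%). Before adjustment 682 genes had a p under 0.05, with 3.56% higher and 1.21% lower. Among the 33 collagens 1 was higher and 3 were lower, 4 in all, and the lowest adjusted p was 0.972. That number was smaller without either siRIPK2_1 or siRIPK2_4 and with offsets for gene length and GC content. It was larger without siRIPK2_2 and without the filter, where more collagens are tested. Against WT, 0 genes passed (0.0%), and before adjustment 0.664% were higher and 0.419% lower at a p under 0.05, 155 in all and 234 without siRIPK2_2. No collagen was among them, and the lowest unadjusted p of a collagen was 0.142, for COL8A2. The comparisons against siNC, WT and both share the siRIPK2 libraries, so they are not independent of one another.

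**Figure D3:**
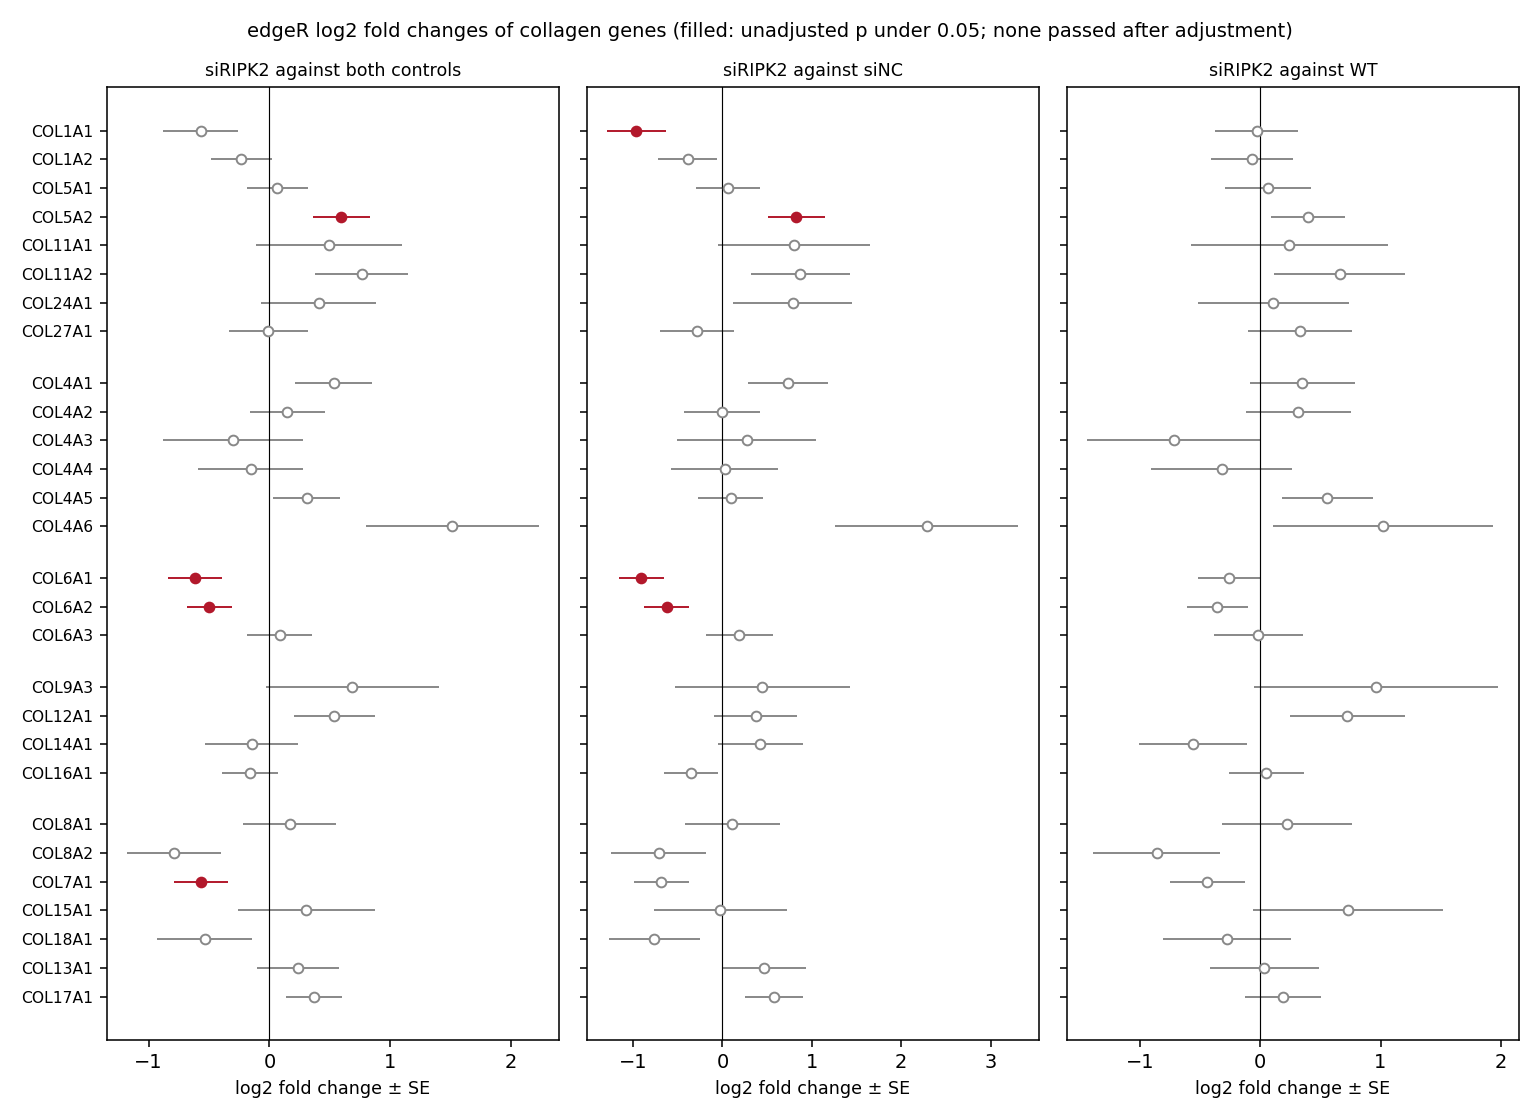
edgeR log2 fold changes of the 28 collagen genes (points) with their standard errors (bars), siRIPK2 against both controls, against siNC and against WT, in the class order of the levels plot. Filled points have an unadjusted p under 0.05. COL6A1 is at -0.62, -0.91 and -0.26 in the 3 panels and COL5A2 at 0.60, 0.82 and 0.40, and against WT no point is filled.

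The controls had unlike values of COL1A1 and COL6A1, though neither difference passed the test. In siNC against WT, the log2 difference was 0.93 ± 0.44 (SE) for COL1A1 (unadjusted p = 0.0688 in edgeR, 0.0359 without siRIPK2_1) and 0.65 ± 0.33 for COL6A1 (unadjusted p = 0.0879). For the other leading collagens it was smaller against its error, 0.32 ± 0.43 for COL1A2, 0.27 ± 0.33 for COL6A2 and -0.20 ± 0.47 for COL6A3. After adjustment 0 genes passed (0.0%). Before it, 391 reached a p under 0.05, of which the higher ones in siNC made up 0.643% of genes and the lower ones 2.09%, with no collagen among them. siNC was the highest of the 6 libraries for 8 of the 33 collagens, against 15.2% of all genes, and the lowest for 7, against 17.6%. For COL1A1 and COL6A1 a value against both controls thus averages unlike siNC and WT levels.

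Among the type I chains, COL1A1 (ENSG00000108821, chromosome 17, 50183289 to 50201632, minus strand, GRCh38) encodes the alpha 1 chain. It was at 1224, 1670, 2297 and 1865 CPM in siRIPK2_1 to siRIPK2_4, against 3436 in siNC and 1800 in WT. siNC was well above every other library, and WT lay in the middle of the siRIPK2 range. The siRIPK2 mean of 1764 ± 445 CPM (SD, n = 4) was 51.3% of siNC and 98.0% of WT. The log2 fold change was -0.96 ± 0.33 (SE) against siNC (unadjusted p = 0.0189, adjusted p = 0.972, edgeR), -0.03 ± 0.35 against WT (unadjusted p = 0.935) and -0.57 ± 0.31 against both (unadjusted p = 0.0988). Without siNC the value against both becomes -0.02, without WT it becomes -0.97 (unadjusted p = 0.0184), and without siRIPK2_1 the value against WT becomes 0.11.

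COL1A2, the alpha 2 chain (chromosome 7), was at 2283, 3379, 2147 and 3511 CPM in siRIPK2_1 to siRIPK2_4, against 3699 in siNC and 2966 in WT. siRIPK2_1 and siRIPK2_3 were low, siRIPK2_2 and siRIPK2_4 stood near siNC, and WT lay between. The log2 fold change against siNC was -0.39 ± 0.33 (unadjusted p = 0.277, edgeR). The balance of the chains differed between libraries: the COL1A1 to COL1A2 ratio per length was 0.43, 0.40, 0.86 and 0.43 in siRIPK2_1 to siRIPK2_4, against 0.75 in siNC and 0.49 in WT. siRIPK2_3 and siNC had the high ratios, and siRIPK2_3 had the highest COL1A1 of the siRIPK2 libraries with the lowest COL1A2. COL3A1, a chain that fibroblasts commonly make with type I, had only 2 to 16 counts in siRIPK2 libraries, 3 in siNC and 4 in WT.

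**Figure D4:**
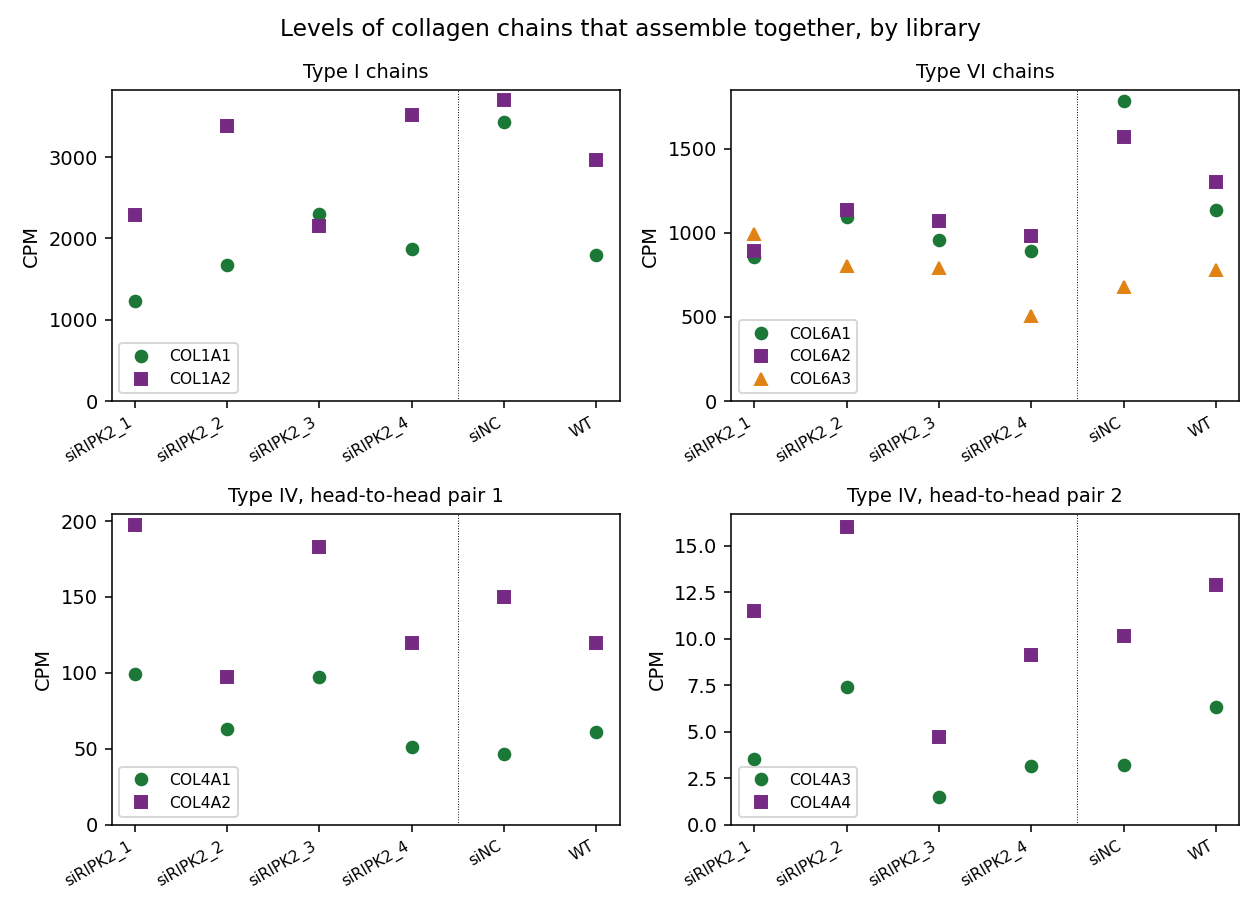
CPM of chains that assemble with each other, by library, on axes from 0: COL1A1 and COL1A2, the 3 type VI chains, COL4A1 with COL4A2, and COL4A3 with COL4A4; the dotted line separates siRIPK2 libraries from siNC and WT. CPM is not scaled to transcript length. On this scale COL1A1 lies above COL1A2 only in siRIPK2_3 (2297 against 2147 CPM), and COL6A1 above COL6A2 only in siNC. Per length, the COL1A1 to COL1A2 ratio was 0.40 to 0.86 and the COL6A1 to COL6A2 ratio 0.71 to 0.93 over the 6 libraries. Neither chain thus exceeded its partner per length in any library.

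The type V chains, which nucleate type I fibrils and set their width, had unlike patterns. COL5A2 (ENSG00000204262, chromosome 2, 189031896 to 189225312, minus strand) was at 378, 268, 286 and 315 CPM in siRIPK2_1 to siRIPK2_4, against 176 in siNC and 237 in WT. All 4 siRIPK2 libraries were above both controls. In edgeR the log2 fold change was 0.60 ± 0.23 (SE) against both controls (unadjusted p = 0.0311, adjusted p = 0.9998, edgeR), 0.82 ± 0.32 against siNC (unadjusted p = 0.0331) and 0.40 ± 0.31 against WT (unadjusted p = 0.234). Against both controls it is 0.48 without siRIPK2_1 (unadjusted p = 0.0613), 0.59 without siRIPK2_4 (unadjusted p = 0.0521) and 0.40 without siNC (unadjusted p = 0.224). Against siNC the unadjusted p is 0.0519 without siRIPK2_1 and 0.0587 without siRIPK2_4.

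COL5A1, its partner chain, was at 298, 318, 232 and 185 CPM in siRIPK2_1 to siRIPK2_4, against 247 in each of siNC and WT. The controls lay inside the siRIPK2 range, and the log2 fold change against both was 0.06 ± 0.25. The COL5A1 to COL5A2 ratio per length was 0.58, 0.87, 0.60 and 0.43 in siRIPK2_1 to siRIPK2_4, against 1.03 in siNC and 0.77 in WT, so siRIPK2_2 lay between the controls and the other siRIPK2 libraries lay below both. COL5A3, a further type V chain, stayed at 2 to 45 counts in siRIPK2 libraries, 55 in siNC and 27 in WT. Next to COL5A2 on chromosome 2, the nearly silent COL3A1 (188974320 to 189012746, plus strand) runs towards it.

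The minor fibrillar chains were low and scattered. COL11A1, a fibril-nucleating chain best known from cartilage, was at 14.96, 11.6, 2.92 and 5.03 CPM in siRIPK2_1 to siRIPK2_4, against 4.96 in siNC and 7.30 in WT, a 5.12-fold span within the siRIPK2 libraries. COL11A2 was at 1.64 to 2.84 CPM in siRIPK2 libraries, 1.25 in siNC and 1.44 in WT, with no overlap (log2 fold change 0.76 ± 0.39 against both, unadjusted p = 0.0802, edgeR). COL24A1 was at 1.31 to 3.68 CPM in siRIPK2 libraries, 1.37 in siNC and 2.19 in WT. COL27A1, which like COL24A1 carries a shorter helix, was at 28.2 to 60.7 CPM in siRIPK2 libraries, 57.3 in siNC and 37.2 in WT. For these last genes the groups overlapped. COL2A1, the cartilage fibre chain, had 0 to 2 counts.

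Of the type VI chains, COL6A1 and COL6A2 were lower in every siRIPK2 library than in both controls, and COL6A3 was not. COL6A1 (ENSG00000142156, chromosome 21, 45981737 to 46005050, plus strand) was at 857, 1095, 960 and 892 CPM in siRIPK2_1 to siRIPK2_4, against 1784 in siNC and 1135 in WT. All siRIPK2 libraries were below both controls, siRIPK2_2 by little against WT. The siRIPK2 mean of 951 ± 105 CPM (SD, n = 4) was 53.3% of siNC and 83.8% of WT. The log2 fold change was -0.62 ± 0.23 (SE) against both (unadjusted p = 0.0232, adjusted p = 0.9998, edgeR), -0.91 ± 0.25 against siNC (unadjusted p = 0.00678, adjusted p = 0.972) and -0.26 ± 0.26 against WT (unadjusted p = 0.353). Against both it is -0.25 without siNC (unadjusted p = 0.369) and -0.59 without siRIPK2_4 (unadjusted p = 0.0501).

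COL6A2 (ENSG00000142173, 46098097 to 46132849, plus strand) lies near COL6A1 on the same chromosome and supplies the second chain of the monomer. It was at 894, 1133, 1068 and 979 CPM in siRIPK2_1 to siRIPK2_4, against 1571 in siNC and 1304 in WT. Again all siRIPK2 libraries were below both controls, with siNC above WT. On the log2 scale the difference was -0.50 ± 0.19 against both (unadjusted p = 0.0282, edgeR), -0.63 ± 0.25 against siNC (unadjusted p = 0.0376) and -0.36 ± 0.25 against WT (unadjusted p = 0.199). Against both the unadjusted p is 0.0548 without siRIPK2_1, 0.0582 without siRIPK2_4, 0.210 without siNC and 0.0814 with offsets for gene length and GC content. Against siNC it is 0.0615 without siRIPK2_1, 0.0592 without siRIPK2_3, 0.0777 without siRIPK2_4, 0.0525 in DESeq2 and 0.136 with those offsets.

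COL6A3, the largest of these chains (chromosome 2), was at 994, 801, 791 and 508 CPM in siRIPK2_1 to siRIPK2_4, against 678 in siNC and 782 in WT. Here siRIPK2_1 was highest, siRIPK2_4 was lowest and the groups overlapped, with a log2 fold change of 0.08 ± 0.27 against both (unadjusted p = 0.759, edgeR). The COL6A1 to COL6A2 ratio per length stayed at 0.73 to 0.79 in siRIPK2 libraries, against 0.93 in siNC and 0.71 in WT. The COL6A3 to COL6A1 ratio was 0.46, 0.29, 0.33 and 0.22 in siRIPK2_1 to siRIPK2_4, against 0.15 in siNC and 0.27 in WT, with siNC lowest. COL6A5 and COL6A6, which can take the place of COL6A3 in other tissues, had at most 2 counts in any library.

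In the type IV class, COL4A1 and COL4A2, the common network chains, were the most abundant. COL4A1 was at 99.0, 63.0, 97.1 and 51.0 CPM in siRIPK2_1 to siRIPK2_4, against 46.5 in siNC and 60.8 in WT. siRIPK2_1 and siRIPK2_3 were high, and siRIPK2_4 lay between the controls. COL4A2 was at 197, 97.1, 183 and 120 CPM in siRIPK2_1 to siRIPK2_4, against 150 in siNC and 120 in WT, again with siRIPK2_1 and siRIPK2_3 on top. Both had siRIPK2_1 and siRIPK2_3 as their top libraries although their siNC values differed, with siNC the lowest of the 6 for COL4A1 and above WT for COL4A2. The COL4A1 to COL4A2 ratio per length was 0.49, 0.64, 0.52 and 0.42 in siRIPK2_1 to siRIPK2_4, against 0.30 in siNC and 0.50 in WT. Against both controls the log2 fold changes were 0.53 ± 0.32 for COL4A1 and 0.15 ± 0.31 for COL4A2, with unadjusted p of 0.129 and 0.648 in edgeR.

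COL4A3 and COL4A4, chains of the mature network of kidney and lung, were low. COL4A3 was at 3.51, 7.39, 1.48 and 3.14 CPM in siRIPK2_1 to siRIPK2_4, against 3.21 in siNC and 6.36 in WT. COL4A4 was at 11.5, 16.0, 4.74 and 9.13 CPM in siRIPK2_1 to siRIPK2_4, against 10.2 in siNC and 12.9 in WT. Both were highest in siRIPK2_2 and lowest in siRIPK2_3, the groups overlapped, and their ratio per length was 0.38 to 0.57 in siRIPK2 libraries, 0.39 in siNC and 0.61 in WT. COL4A5 was at 23.7 to 38.4 CPM in siRIPK2 libraries, 27.5 in siNC and 19.9 in WT. COL4A6 was at 1.59, 4.25, 0.797 and 1.93 CPM in siRIPK2_1 to siRIPK2_4, against 0.436 in siNC and 1.05 in WT. Only siRIPK2_3 kept COL4A6 from lying apart from the controls, and its log2 fold change against both was 1.51 ± 0.71 (unadjusted p = 0.0642, edgeR) or 0.93 without siRIPK2_2.

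Of the FACITs, 4 reached 1 CPM. COL12A1, which decorates type I fibrils, was at 147, 62.8, 95.3 and 80.1 CPM in siRIPK2_1 to siRIPK2_4, against 74.3 in siNC and 58.4 in WT. COL14A1, its close relative, was at 116, 157, 78.5 and 192 CPM in siRIPK2_1 to siRIPK2_4, against 101 in siNC and 200 in WT. These relatives had different high libraries, siRIPK2_1 for COL12A1 and WT with siRIPK2_4 for COL14A1. Their log2 fold changes against both controls were 0.54 ± 0.34 and -0.15 ± 0.39, with unadjusted p of 0.148 and 0.710 in edgeR. COL12A1 is at 0.25 without siRIPK2_1, and COL14A1 turns to 0.42 without WT, also turns positive without siRIPK2_3, and is -0.55 without siNC.

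COL16A1 was at 61.4, 84.7, 85.5 and 84.6 CPM in siRIPK2_1 to siRIPK2_4, against 101 in siNC and 76.2 in WT. siRIPK2_1 stood below 3 nearly equal siRIPK2 libraries. COL9A3 was at 9.03, 9.67, 2.81 and 1.43 CPM in siRIPK2_1 to siRIPK2_4, against 4.21 in siNC and 2.94 in WT, with siRIPK2_1 and siRIPK2_2 high. Its exons overlap TCFL5, and with the strand setting of the counting unstated, reads of the 2 genes cannot be told apart. COL9A2 had 22 to 40 counts in siRIPK2 libraries, 11 in siNC and 17 in WT, and COL21A1 had 8 to 76 in siRIPK2 libraries, 22 in siNC and 32 in WT. COL19A1, COL20A1 and COL22A1 had at most 5 counts.

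Among the other classes, COL7A1, the chain of the anchoring fibrils under epithelia (chromosome 3, 48564073 to 48595267, minus strand), was at 146, 165, 141 and 106 CPM in siRIPK2_1 to siRIPK2_4, against 224 in siNC and 189 in WT. All siRIPK2 libraries were below both controls. On the log2 scale COL7A1 differed by -0.57 ± 0.23 against both (unadjusted p = 0.0336, adjusted p = 0.9998, edgeR), -0.69 ± 0.31 against siNC (unadjusted p = 0.0567) and -0.44 ± 0.31 against WT (unadjusted p = 0.198). Against both, the unadjusted p is 0.0527 without siRIPK2_3, 0.0671 without siRIPK2_4, 0.202 without siNC and 0.0540 without WT.

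COL8A2, a chain of short hexagonal networks, was at 1.06 to 2.12 CPM in siRIPK2 libraries, 2.56 in siNC and 2.83 in WT, with no overlap and a log2 fold change of -0.79 ± 0.39 against both (unadjusted p = 0.0741, edgeR). COL8A1 was at 14.8 to 41.4 CPM in siRIPK2 libraries, 24.5 in siNC and 22.7 in WT, with the groups overlapping. COL17A1, the hemidesmosome collagen of epithelial cells, was at 18.8, 18.6, 18.8 and 18.8 CPM in siRIPK2_1 to siRIPK2_4, against 12.6 in siNC and 16.5 in WT. All siRIPK2 libraries were above both controls and almost identical, with a coefficient of variation of 0.496%, the lowest of the 28 collagens. At 683 to 851 counts per siRIPK2 library, counting error alone would usually give a wider spread. The closeness is thus no measure of how little this gene varies. The log2 fold change of 0.37 ± 0.23 against both had an unadjusted p of 0.149 in edgeR, which sets a gene's spread partly from genes of like level. In this fit siNC and WT form 1 group, so the spread also holds the difference between them.

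COL13A1, another transmembrane collagen, was at 27.4 to 60.2 CPM in siRIPK2 libraries, 33.3 in siNC and 45.1 in WT. COL18A1, the source of endostatin, was at 2.30 to 5.73 CPM in siRIPK2 libraries, 7.39 in siNC and 5.27 in WT, and its exons overlap SLC19A1. COL15A1, its relative, was at 0.842 to 3.23 CPM in siRIPK2 libraries, 2.15 in siNC and 1.28 in WT. The groups overlapped for all 3. COL10A1, COL23A1, COL25A1 and COL26A1 had at most 8 counts and COL28A1 at most 18.

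Within the siRIPK2 libraries the 28 collagens at 1 CPM or more varied with a median coefficient of variation of 30.6%, against 23.0% over the 12332 genes at that level. It ran from 0.496% for COL17A1 to 73.6% for COL9A3. siRIPK2_3 was the lowest of the 6 libraries for 12 of the 33 collagens, against 18.3% of all genes. siRIPK2_1 was the highest for 10 and siRIPK2_2 for 9, against 20.8% and 17.9% of all genes.

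The enzymes, carriers and receptors that collagen needs were present, and 56 of 60 listed genes passed the filter. Against both controls 23 were higher and 33 lower, with 0 passing after adjustment and 1, BGN, lower at an unadjusted p under 0.05, which 1.23% of all genes tested were. Against siNC 4 were lower at that p (BGN, PLOD2, BMP1 and LOXL2), against 1.21% of all genes. BGN, which encodes biglycan, a proteoglycan that binds type I and type VI collagen, was at 13.1, 13.2, 17.7 and 17.5 CPM in siRIPK2_1 to siRIPK2_4, against 29.5 in siNC and 24.8 in WT. All siRIPK2 libraries were below both controls, with a log2 fold change of -0.82 ± 0.24 (unadjusted p = 0.00855, adjusted p = 0.9998, edgeR). FMOD, another small proteoglycan of fibrils, was at 1.74 to 2.26 CPM in siRIPK2 libraries, 3.49 in siNC and 2.17 in WT. TNXB, a large linker protein of fibrils, was at 0.820 to 1.97 CPM in siRIPK2 libraries, 2.31 in siNC and 2.28 in WT, and its exons overlap ATF6B and CYP21A2. Of the 8 matrix partners 2 were higher and 6 lower against both controls.

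Among the 19 folding and modifying genes, 9 were higher and 10 lower against both controls. P4HA1, a prolyl 4-hydroxylase subunit that stabilises the helix, was at 87.5 to 111 CPM in siRIPK2 libraries, 146 in siNC and 110 in WT. P4HA2 was at 93.7 to 189 CPM in siRIPK2 libraries, 217 in siNC and 157 in WT. PLOD2, which hydroxylates lysines for crosslinks, was at 199 to 342 CPM in siRIPK2 libraries, 456 in siNC and 262 in WT, and its log2 fold change against siNC was -0.88 ± 0.34 (unadjusted p = 0.0332, edgeR). For all 3, siNC was above every other library and WT lay inside the siRIPK2 range.

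The 10 secretion genes split 6 higher and 4 lower. MIA3, which loads collagen at exit sites, was at 50.4 to 86.1 CPM in siRIPK2 libraries, 58.1 in siNC and 76.8 in WT. KLHL12, which enlarges the carriers, was at 41.9 to 61.0 CPM in siRIPK2 libraries, 38.6 in siNC and 46.5 in WT. CREB3L1, a transcription factor that drives collagen genes in mouse bone, was at 24.3 to 106 CPM in siRIPK2 libraries, 62.8 in siNC and 52.4 in WT. The groups overlapped for each.

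For processing and crosslinking outside the cell, 10 of 11 genes were lower in siRIPK2 than in siNC, with a median log2 fold change of -0.42, and 10 of 11 were higher in siNC than in WT, with a median of 0.73. Over all genes tested, 51.7% were higher in siRIPK2 than in siNC and 49.6% higher in siNC than in WT, with medians of 0.02 and -0.002. Against WT, 6 were higher and 5 lower in siRIPK2. These comparisons share the siNC library. BMP1, which removes the C-propeptide of fibrillar procollagens, was at 53.2 to 72.9 CPM in siRIPK2 libraries, 115 in siNC and 69.3 in WT. LOXL2, a crosslinking oxidase whose exons overlap ENTPD4, was at 125 to 217 CPM in siRIPK2 libraries, 301 in siNC and 155 in WT. ADAMTS3, which removes N-propeptides, was at 6.71 to 11.3 CPM in siRIPK2 libraries, 6.42 in siNC and 6.69 in WT, without overlap. The unadjusted p against siNC was 0.0232 for BMP1, 0.0375 for LOXL2 and 0.247 for ADAMTS3 in edgeR.

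Of the 8 receptor genes that passed the filter, 4 were higher and 4 lower against both controls. ITGB1, the beta subunit of the collagen-binding integrins, was at 702 to 1096 CPM in siRIPK2 libraries, 823 in siNC and 833 in WT. ITGA11, an alpha subunit that binds fibrillar collagen, was at 21.0 to 56.9 CPM in siRIPK2 libraries, 36.2 in siNC and 46.1 in WT. MRC2, which takes up collagen fragments, was at 268 to 356 CPM in siRIPK2 libraries, 399 in siNC and 329 in WT. The siRIPK2 range held both controls for ITGB1 and ITGA11, and WT for MRC2.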

How the data were processed

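Raw counts of reads by Ensembl gene ID, not normalised, were deposited for the 6 libraries in a single table. FastQC, Trimmomatic, HISAT2, bedtools and GRCh38 were used per the submitters' processing notes. Neither tool versions nor the annotation or its strand setting are stated there. Library totals were 33540619 to 45309423 counts, and 3 counts correspond to 0.0664 to 0.0935 CPM. No libraries agreed within sampling noise (chi-square of 77.1 to 223.6 per degree of freedom). Pairs of siRIPK2 libraries lay at 159.7 to 223.6, and siNC with WT at 88.5. The siRIPK2 libraries lay at 77.1 to 150.4 from WT and at 128.8 to 199.4 from siNC. By this measure each pair of siRIPK2 libraries was further apart than any of them was from WT. What lies behind this order was not tested.

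Symbols matched 20148 of 20263 IDs, and GENCODE release 29 gave coordinates, gene types and the principal transcript used for RPKM. Counts were tested with edgeR 4.0.16 (R 4.3.3, TMM, quasi-likelihood F test after filterByExpr at a minimum of 10 counts, Benjamini-Hochberg over all genes tested) in a fit with 2 groups (siRIPK2 against siNC and WT together, 4 residual degrees of freedom) and a fit with 3 groups (3 residual degrees of freedom). The biological coefficient of variation was 31.5% and 33.7%. No exact test over these 6 libraries could reach p under 0.0667. Alternatives used DESeq2 1.42.0, limma 3.58.1, other size factors, no filter, length and GC offsets, and left-out libraries.

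The collagen members, classes and the list of 60 related genes were chosen with earlier results of these data known. All collagens with a mean of at least 1 CPM are named with values, and per group of related genes up to 3 with the lowest unadjusted p against both controls. A type VI coding stretch is not reported here.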

Additional observations from a re-analysis of the deposited data

Results flagged for a closer look

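COL16A1 in siRIPK2_1, at 61.4 CPM, lay far from the other 3 siRIPK2 libraries (84.6 to 85.5 CPM): its gap to the nearest of them was 0.962 of the whole range, above Dixon's 95% limit for 4 samples. It was the only one of 28 collagen genes examined in this way, and chance flags about 1 in 20 groups.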

How the results depend on the processing

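No collagen passed an adjusted p of 0.05 in any comparison under any alternative run, and the lowest adjusted p was 0.295 (COL6A1 against siNC, DESeq2). With DESeq2 the number of genes called, 0 in edgeR, was 11 against both controls, 74 against siNC, 9 against WT and 11 for siNC against WT. Against WT it was 1 without the filter and 1 with limma-voom. Leaving out 1 library gave 0 to 2 genes against both controls, with 2 without siRIPK2_1 and 2 without siRIPK2_2. With 1 library left out, the log2 fold change of COL1A1 against WT ran from -0.18 without siRIPK2_3 to 0.11 without siRIPK2_1, where its sign reversed. For 13 values of single collagens, those of COL1A1, COL6A1 and the collagens with an unadjusted p under 0.05, 127 alternative values were computed. Of these, 104 kept direction and side of an unadjusted p of 0.05, 20 no longer passed it, 2 newly passed it and 1 reversed. The cause was not tested. The 104 overstate stability, because they include values that never passed and so could not lose it. COL1A1 against both controls counts as kept without siNC, although it went from -0.57 to -0.02. Of 11 alternatives against both controls, COL6A1 kept direction and side in 9, COL5A2 in 8, and COL6A2 and COL7A1 in 7 each. Of the 28 collagens at 1 CPM or more, 10 turned sign against both controls in at least 1 alternative (COL4A2, COL4A3, COL4A4, COL5A1, COL6A3, COL8A1, COL14A1, COL15A1, COL16A1 and COL27A1), none of them with an unadjusted p under 0.05, as did 7 against siNC, 8 against WT and 1 for siNC against WT. No paired analysis was possible because siNC and WT have 1 library each and share fewer than 2 replicate numbers with siRIPK2. The siNC and WT levels rest on 1 library each, and genes under about 10 counts are limited by depth.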
